A study of Homo sapiens with 8 samples.

Results

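The genes described here are 9 transcriptional targets of the tumor suppressor p53, namely CDKN1A, MDM2, GDF15, TP53INP1, SESN1, GADD45A, BTG2, ZMAT3 and FAS. They were chosen by name out of 34164 genes listed in 1 or both tables of the series, with earlier results of these data known. All 9 were listed in all 8 libraries. The cells were Kyse510, a human esophageal squamous cell carcinoma line, and whole RNA was sequenced after chemical inhibition or silencing of LSD1 (gene KDM1A), a histone demethylase, or G9a (gene EHMT2), a methyltransferase of histone H3 lysine 9. In the first table, cells received for 2 days vehicle (DMSO), 7 µM of the LSD1 inhibitor SP2509, 7 µM of the G9a inhibitor UNC0642, or the combination of both. In the second table, lines carrying a doxycycline-inducible shRNA against LSD1 (shLSD1) or G9a (shG9a), selected with puromycin for 14 days, were compared with and without 2 days of doxycycline (Dox). Each condition had 1 library, so no difference below has a replicate check. No library of a non-silencing shRNA with Dox was analysed here, so silencing and Dox itself cannot be told apart, and the 3 inhibitor comparisons share 1 vehicle library.

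p53 is a transcription factor that is normally kept scarce by its own target MDM2, a ubiquitin ligase that marks it for degradation. When DNA is damaged or the cell is stressed, p53 accumulates, binds paired repeats of a short palindromic motif and switches on genes that halt the cell cycle, repair DNA, adjust metabolism, signal to other cells or prepare cell death. Many of its targets can also be switched on by other factors, among them its relatives p63 and p73, the stress factor ATF4 and growth factor signalling.

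Because the genes are defined by a transcription factor, the sequence that it recognises was looked for around each of them. The 20-base p53 response element consensus, with no spacer between its repeats, was searched from 5000 bases before to 5000 bases after the 5′ end of each gene, on GRCh38 with the GENCODE 44 annotation, allowing 2 mismatches outside the C and G at the core of each repeat. The consensus is palindromic, so both strands were covered. All matches share that C and G because the search required them, while the 2 bases between them vary. The best match of each gene that had 1 is shown here as the plus strand of the genome, with the core of each repeat in capitals:
CDKN1A, chr6:36676449-36676468: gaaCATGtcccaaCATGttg
MDM2, chr12:68808923-68808942: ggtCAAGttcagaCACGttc
GADD45A, chr1:67686775-67686794: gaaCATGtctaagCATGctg
BTG2, chr1:203303642-203303661: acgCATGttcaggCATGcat
ZMAT3, chr3:179070188-179070207: aggCATGtctggaCTTGttt
FAS, chr10:88991309-88991328: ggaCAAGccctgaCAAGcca
GDF15, chr19:18373947-18373966: agaCCTGcccggaCATGtcc

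A match was found for 7 of the 9 genes (77.8%), beside 17 of 49 other p53 targets (34.7%) and 1335 of 17293 protein-coding genes (7.72%). The ZMAT3 match, in an intron 2082 bases past the 5′ end of this minus-strand gene, had 0 mismatches, while those of GADD45A (intron) and GDF15 (at -775 bases from the 5′ end) had 1 and the other 4 had 2. The MDM2 match lay in an intron, 756 bases past the 5′ end, and the BTG2 match at -1840 bases, outside the gene. The FAS match overlapped an exon of an annotated transcript, as did the CDKN1A match, at the 5′ end used here. A match was labelled exon where any transcript of the gene had an exon there, so it can be intronic in others. SESN1 and TP53INP1 had no match in this window, which says only that these letters are not there. Such a match is a description of the sequence and not a measured binding site.

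Levels are given in FPKM, the authors' unit, a count of sequenced fragments scaled to gene length and to the size of the library. The values of each library were whole multiples of what 1 read is worth, so the reads behind each value could be estimated. The libraries held 15662035 to 17889466 reads. A gene was called changed when FPKM + 1 differed at least 1.3-fold between a treated library and its own control, FPKM reached 1 in 1 or both, and a two-sided exact binomial test on the reads gave a p under 0.05, without adjustment. With 1 library on each side it speaks of those libraries alone, and every interval below is a 95% interval that covers counting error only. The targeted genes behaved as the line labels say: KDM1A fell from 26.0 to 6.29 FPKM with Dox in the shLSD1 line and EHMT2 fell from 7.85 to 4.76 in the shG9a line, where KDM1A rose from 26.4 to 35.8. EHMT2 also fell with the combination, from 11.1 to 5.38. Of the squamous markers, KRT5 lay between 74.6 and 734 FPKM and TP63 between 18.3 and 127, and of markers of other cell types PTPRC stayed at or under 0.0425, CD68 at or under 0.0522 and PECAM1 at or under 0.569, while COL1A1 lay between 2.92 and 5.36. The other squamous markers were lower or uneven: KRT14 lay at 1.10 to 10.1 FPKM, KRT6A at 0.676 to 20, DSG3 at 5.57 to 28.6 and SOX2 at 0.313 (SP2509) to 38.8 (induced shG9a line), with 18.3 in vehicle and 0.636 in the combination.

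The 9 targets did not move as a block. SP2509 raised 4 of the 8 that reached 1 FPKM (CDKN1A, GADD45A, BTG2 and GDF15) and lowered 1, SESN1, while 18.2% of all 13342 genes tested were called up and 37.5% down. UNC0642 raised 2 of 8, CDKN1A and GDF15, and lowered FAS, where 15.8% of genes were called up and 14.0% down. With the combination, 7 of 9 rose, FAS fell and SESN1 was not called, while the calls over all genes were 29.0% up and 29.1% down.

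Silencing gave another set. Dox in the shLSD1 line raised SESN1, TP53INP1 and ZMAT3 and lowered GADD45A and GDF15, with 22.7% of all genes called up and 10.4% down. Dox in the shG9a line raised those same 3 together with BTG2 and lowered 4 genes, CDKN1A, FAS, GADD45A and GDF15, so that 8 of 9 were called, where 30.0% of all genes were up and 15.8% down. As a yardstick chosen after the data were seen, the uninduced shG9a line was set against the uninduced shLSD1 line, and none of the 8 members tested was called there, with 1.36% of all genes up and 2.17% down. The exact binomial test alone gave a p under 0.05 for 5 of those 8 members, and for these 5 the fold limit kept them from being called.

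The median log2 fold change of the members was 0.31 after SP2509, 0.05 after UNC0642 and 0.49 after the combination, beside medians over all genes tested of -0.21, -0.01 and -0.02. With Dox it was -0.15 in the shLSD1 line and -0.12 in the shG9a line, beside 0.13 and 0.18 over all genes. In total, 29 of 45 pairs of member and comparison were called, 20 up and 9 down. TP53INP1 was not tested in 2 of these pairs, with SP2509 and with UNC0642, because its FPKM stayed under 1. Over all genes tested, 15.8% to 30.0% were called up and 10.4% to 37.5% down, depending on the comparison. A share of all genes pooled over the comparisons was not computed. The inhibitor comparisons share their vehicle library, so the pairs are not independent of one another. The median over all genes of at least 5 FPKM was itself shifted by 0.11 on the log2 scale with Dox in the shLSD1 line and by 0.14 in the shG9a line, and at most 0.09 in size with the inhibitors.

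**Figure D1:**
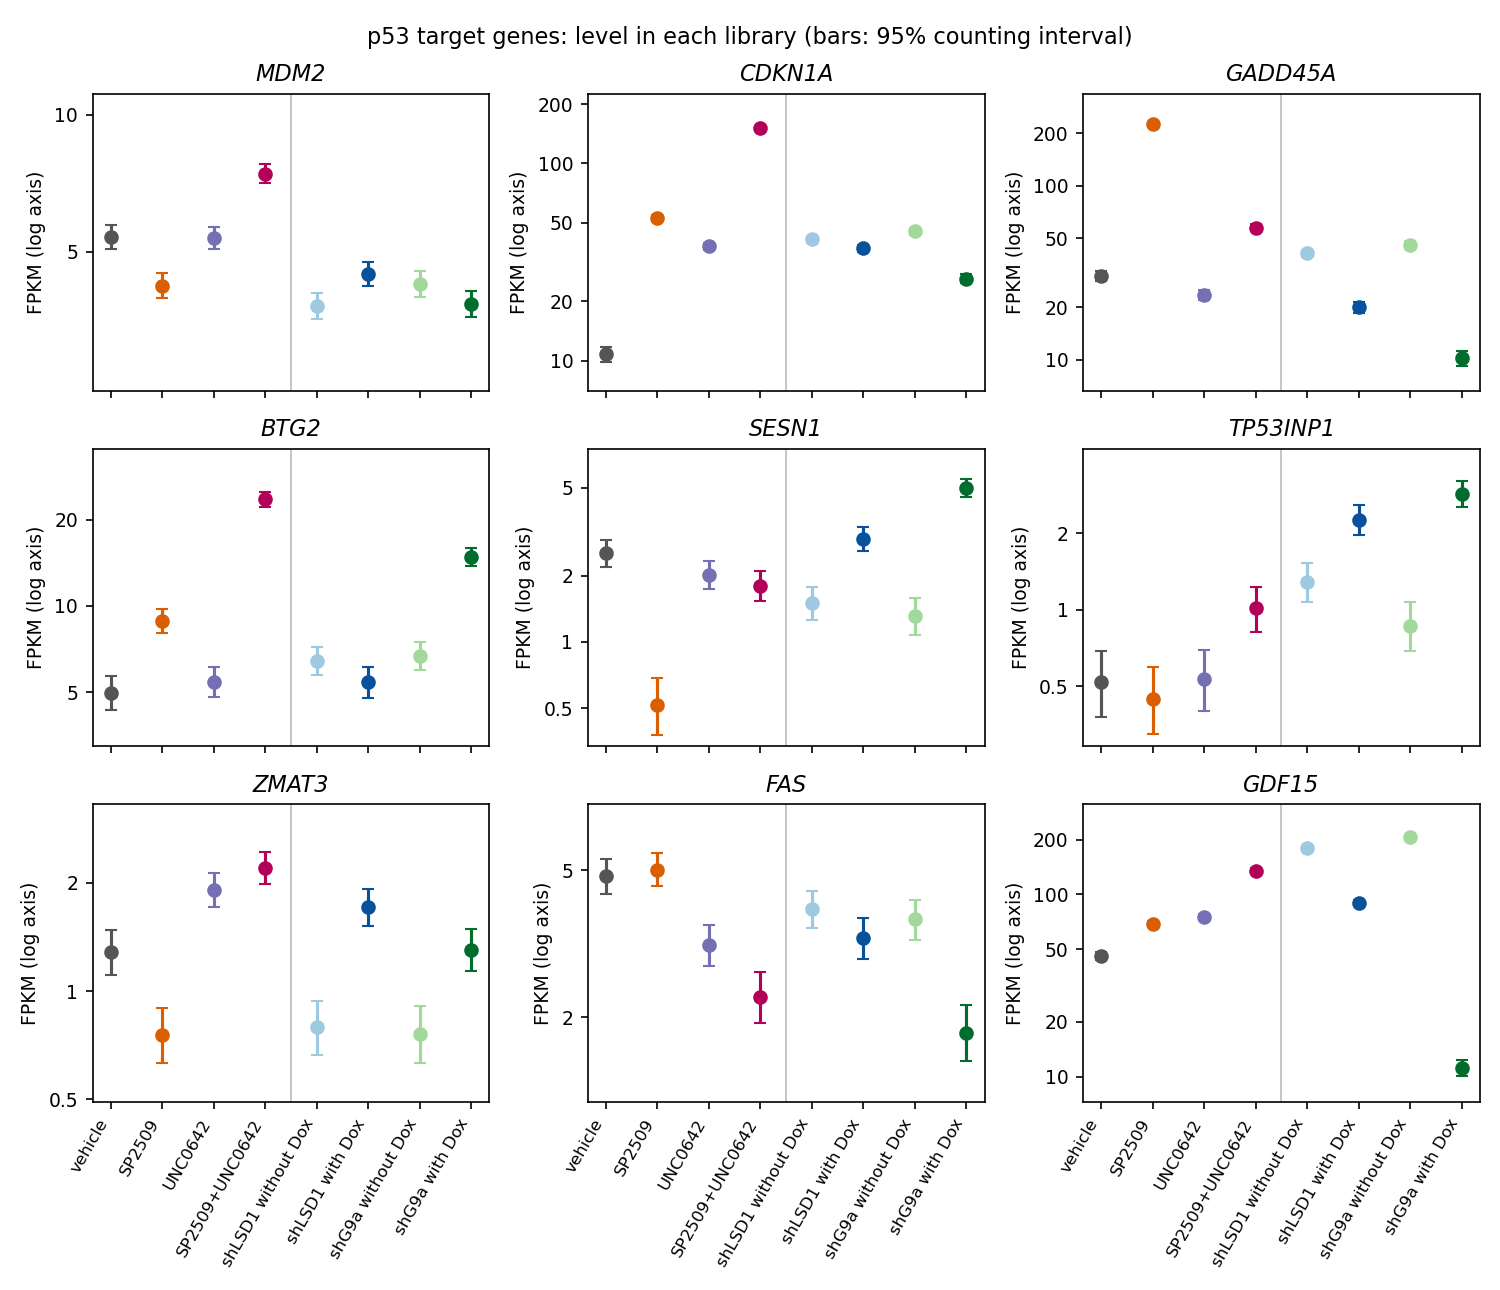
Level of each of the 9 p53 target genes in FPKM (log axis, each panel with its own range) in the 8 libraries, with the inhibitor table left and the silencing table right of the grey line, and bars giving the 95% counting interval. CDKN1A peaks at 151 with the combination, GADD45A at 226 with SP2509 alone, and GDF15 drops to 11.2 in the induced shG9a line.

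MDM2 (chr12:68808176-68850686, plus strand), the ubiquitin ligase that feeds back on p53, varied least among the members, 1.95-fold from its lowest to its highest library. Its level was 5.40 FPKM in vehicle, 4.22 in SP2509, 5.36 in UNC0642 and 7.43 in the combination, and 3.81 and 4.48 without and with Dox in the shLSD1 line and 4.26 and 3.84 in the shG9a line. Of the 5 comparisons MDM2 was called only with the combination, where it rose 1.37-fold (1.27 to 1.48), and its log2 fold change of 0.40 became 0.36, under the limit, once the median of all genes was subtracted. With SP2509 alone its ratio was 0.782 (0.717 to 0.852), which the fold limit did not pass.

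CDKN1A (chr6:36676460-36687339, plus strand) encodes p21, the inhibitor of cyclin-dependent kinases through which p53 stops cells before S phase. Vehicle cells had 10.8 FPKM, SP2509 cells 53, UNC0642 cells 38.0 and cells given both 151. Each inhibitor alone raised it, 4.91-fold (4.47 to 5.40) and 3.52-fold (3.19 to 3.88), and the combination raised it 14.0-fold (12.8 to 15.3), the largest rise of any member. In the silencing table CDKN1A lay at 41.3 FPKM without and 37.1 with Dox in the shLSD1 line, a ratio of 0.898 (0.845 to 0.954) that was not called. In the shG9a line it fell from 45.3 to 26.0, to 0.573 of its control (0.535 to 0.613). All 4 silencing libraries therefore sat above the vehicle library of the other table, the induced shG9a library included. The tables were made separately and that difference was not tested.

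GADD45A (chr1:67685061-67688338, plus strand), a stress protein that binds CDK1 and PCNA and takes part in growth arrest and DNA repair, showed the widest range, 22.2-fold. Its level was 30.4 FPKM in vehicle, 226 in SP2509, 23.7 in UNC0642 and 57.5 in the combination. SP2509 raised it 7.44-fold (6.97 to 7.96) and the combination 1.89-fold (1.75 to 2.04), so cells given both inhibitors held 0.254 (0.242 to 0.267) of the level seen with SP2509 alone. The ratio with UNC0642 alone, 0.781 (0.712 to 0.856), was not called. Dox lowered GADD45A in both lines. In the shLSD1 line it went from 40.9 to 20 FPKM, 0.488 of its control (0.446 to 0.534), and in the shG9a line from 45.6 to 10.2, 0.223 of its control (0.199 to 0.251). The 2 uninduced libraries differed by a ratio of 1.11 (1.04 to 1.20), small beside either change.

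BTG2 (chr1:203305491-203309602, plus strand), an antiproliferative protein that recruits the CCR4-NOT deadenylase to messenger RNA, was raised by SP2509, by the combination and in the induced shG9a line. The levels were 4.98 FPKM in vehicle, 8.86 in SP2509, 5.43 in UNC0642 and 23.5 in the combination, and 6.44 and 5.43 without and with Dox in the shLSD1 line and 6.69 and 14.8 in the shG9a line. The folds were 1.78 (1.51 to 2.11) with SP2509, 4.71 (4.07 to 5.48) with the combination and 2.21 (1.93 to 2.53) with Dox in the shG9a line. With UNC0642 alone the ratio of 1.09 had an interval of 0.909 to 1.31, so no difference was detectable at this depth.

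SESN1 (chr6:108986437-109094819, minus strand), encoding sestrin 1, which restrains the growth kinase mTORC1 and limits oxidative damage, went the opposite way to CDKN1A and GADD45A with SP2509. Vehicle cells had 2.52 FPKM, SP2509 cells 0.515, UNC0642 cells 2.01 and cells given both 1.80, the lowest value resting on 47 reads. SP2509 lowered SESN1 to 0.205 of vehicle (0.146 to 0.282), and UNC0642 and the combination left it at 0.797 and 0.717, neither of them called, although the combination passed (-0.46 on the log2 scale) with a pseudocount of 0.1 in place of 1. With Dox SESN1 went up in both lines, from 1.5 to 2.93 FPKM for shLSD1 and from 1.31 to 5.01 for shG9a. These were folds of 1.96 (1.59 to 2.43) and 3.82 (3.10 to 4.75).

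TP53INP1 (chr8:94925972-94949411, minus strand), a nuclear protein induced by stress that promotes p53-dependent arrest and cell death and also acts in autophagy, was among the 2 lowest members. It had 0.517 FPKM in vehicle, 0.445 in SP2509, 0.532 in UNC0642 and 1.01 in the combination, on 45 to 97 reads. The combination raised it 1.96-fold (1.36 to 2.84), a log2 fold change of 0.41 that became 0.37, under the limit, after the median of all genes was subtracted. In the shLSD1 line TP53INP1 rose from 1.28 to 2.26 with Dox and in the shG9a line from 0.863 to 2.86, folds of 1.77 (1.42 to 2.21) and 3.31 (2.58 to 4.30). The 2 induced libraries were the highest of the 8, as they were for SESN1.

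ZMAT3 (chr3:179017223-179072279, minus strand), a zinc finger protein that binds RNA and regulates splicing and stability of its targets, was likewise low and rose in 3 comparisons. It stood at 1.28 FPKM in vehicle, 0.757 in SP2509, 1.91 in UNC0642 and 2.20 in the combination, and at 0.794 and 1.71 without and with Dox in the shLSD1 line and 0.758 and 1.3 in the shG9a line. The called folds were 1.73 (1.44 to 2.07) with the combination, 2.15 (1.75 to 2.65) in the shLSD1 line and 1.72 (1.37 to 2.17) in the shG9a line, where the call was lost (log2 fold change 0.25) after the median of all genes was subtracted. The ratios with the single inhibitors, 0.593 with SP2509 and 1.49 with UNC0642, were on opposite sides of 1 and were not called on the FPKM + 1 scale, which compresses the fold of genes near 1 FPKM. With a pseudocount of 0.1 both passed, at -0.68 and 0.54 on the log2 scale.

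FAS (chr10:88990582-89015785, plus strand), the cell surface death receptor that starts the caspase cascade when it is bound by its ligand, had no called rise. Its level was 4.82 FPKM in vehicle, 5.02 in SP2509, 3.14 in UNC0642 and 2.27 in the combination. FAS fell to 0.652 of vehicle (0.549 to 0.773) with UNC0642 and to 0.471 (0.388 to 0.571) with the combination. It also fell in the shG9a line, from 3.68 to 1.82 FPKM with Dox, to 0.494 (0.398 to 0.611). The 3 libraries in which G9a was inhibited or its shRNA induced were thus the 3 lowest, although UNC0642 lay close to the induced shLSD1 library, and SP2509 alone gave a ratio of 1.04 (0.895 to 1.21) to vehicle. In the shLSD1 line the level was 3.93 without and 3.28 with Dox, a ratio of 0.833 (0.700 to 0.990) that was not called.

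GDF15 (chr19:18374731-18389176, plus strand), a secreted cytokine of the TGF-beta superfamily that rises under many kinds of cell stress, was the member called in all 5 comparisons, in opposite directions in the 2 tables. The inhibitor libraries held 46.1 FPKM (vehicle), 69.1 (SP2509), 75.2 (UNC0642) and 135 (both). The folds were 1.5 (1.40 to 1.60), 1.63 (1.53 to 1.74) and 2.93 (2.77 to 3.11). In the silencing table GDF15 started high, at 181 in the shLSD1 line and 208 in the shG9a line, and fell with Dox to 89.9 and 11.2. The change in the shG9a line, an 18.6-fold fall (16.8 to 20.6), was the largest of any member in any comparison.

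**Figure D2:**
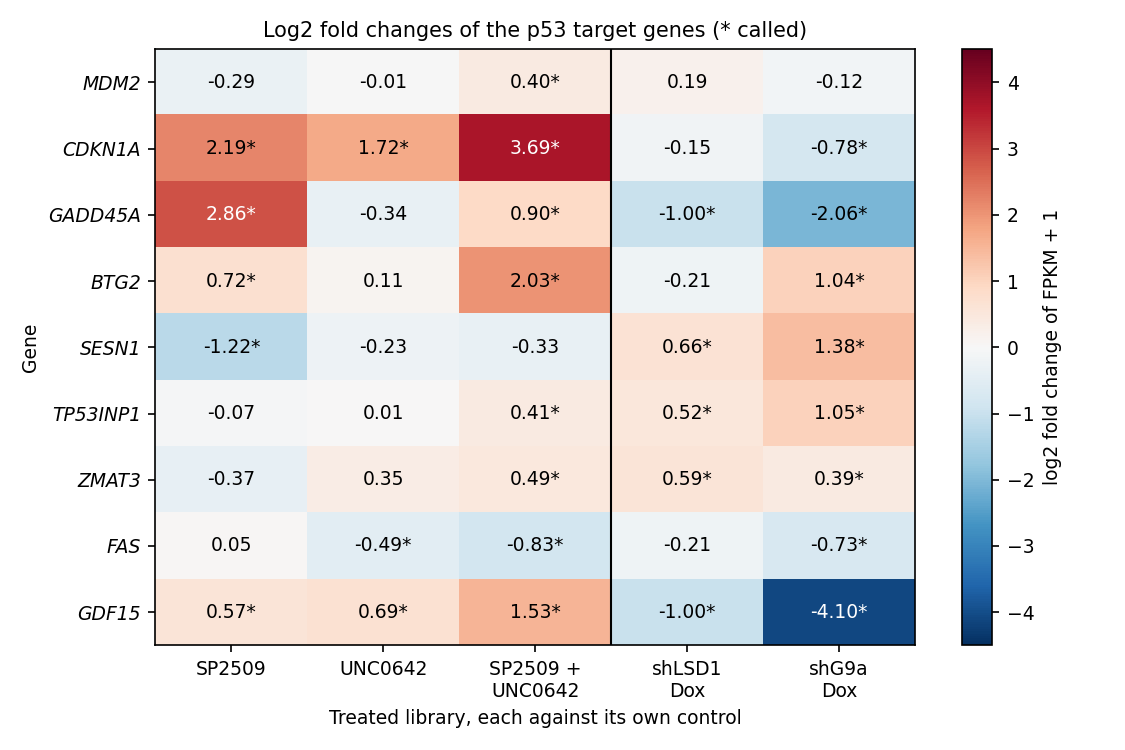
Log2 fold change of FPKM + 1 for the 9 targets (rows) in the 5 comparisons (columns), red for higher and blue for lower in the treated library, with an asterisk where the change was called. GDF15 runs from 1.53 with the combination to -4.10 with Dox in the shG9a line, and FAS has no called rise.

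The combination was set against what the product of the single ratios would give, as a description with counting intervals of the log2 departure. CDKN1A came out close to the product, 14.0 against 17.3, a departure of -0.30 (-0.46 to -0.15), and so did GDF15, 2.93 against 2.44, a departure of 0.26 (0.15 to 0.38). GADD45A fell short, 1.89 against 5.81, a departure of -1.62 (-1.77 to -1.47). FAS was 0.471 against 0.679, a departure of -0.53 (-0.89 to -0.17).

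The other 5 members lay further above the product than GDF15 did. BTG2 reached 4.71 against 1.94, a departure of 1.28 (0.97 to 1.58), and MDM2 1.37 against 0.776, a departure of 0.83 (0.66 to 0.99). TP53INP1 and ZMAT3, whose product was 0.884 in each case, reached 1.96 and 1.73. Their departures were 1.15 (0.38 to 1.91) and 0.96 (0.58 to 1.35). SESN1, lowered by SP2509 alone, was 0.717 with both against a product of 0.163, a departure of 2.13 (1.58 to 2.69). Adding SP2509 to UNC0642 left SESN1 at 0.899 (0.721 to 1.12) of the UNC0642 level and ZMAT3 at 1.16 (0.993 to 1.35) of it, so for these genes the combination could not be told from UNC0642 alone at this depth.

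**Figure D3:**
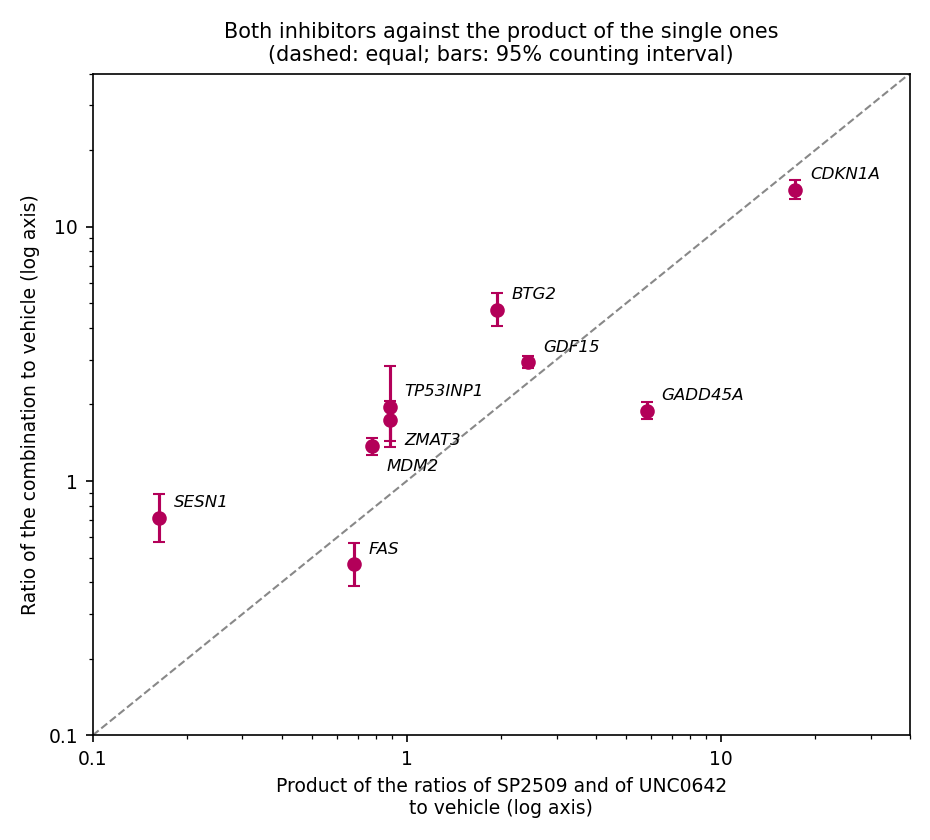
Ratio of the combination to vehicle (vertical, log axis) against the product of the ratios of SP2509 and UNC0642 to vehicle (horizontal, log axis) for the 9 targets, with 95% counting intervals of the combination's ratio only and a dashed line of equality. GADD45A lies well under the line at 1.89 against 5.81, while SESN1, BTG2, MDM2, TP53INP1 and ZMAT3 lie over it and GDF15 slightly over it.

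Of 50 further p53 targets in a list covering the rest of the pathway, 49 were in both tables and 45 or 46 could be tested in each comparison. SP2509 raised 20 and lowered 12 of 46, UNC0642 raised 13 and lowered 10, and the combination raised 25 and lowered 12. Dox raised 18 and lowered 8 of 45 in the shLSD1 line and raised 19 and lowered 11 in the shG9a line. Read against the shares of all genes given above, the up calls made up 43.5%, 28.3%, 54.3%, 40% and 42.2% of the list in these 5 comparisons, each over the background of its comparison. The down calls made up 26.1%, 21.7%, 26.1%, 17.8% and 24.4%, under the background for SP2509 and the combination and over it for the other 3. Between the uninduced lines the list had 0 calls up and 1 down.

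**Figure D4:**
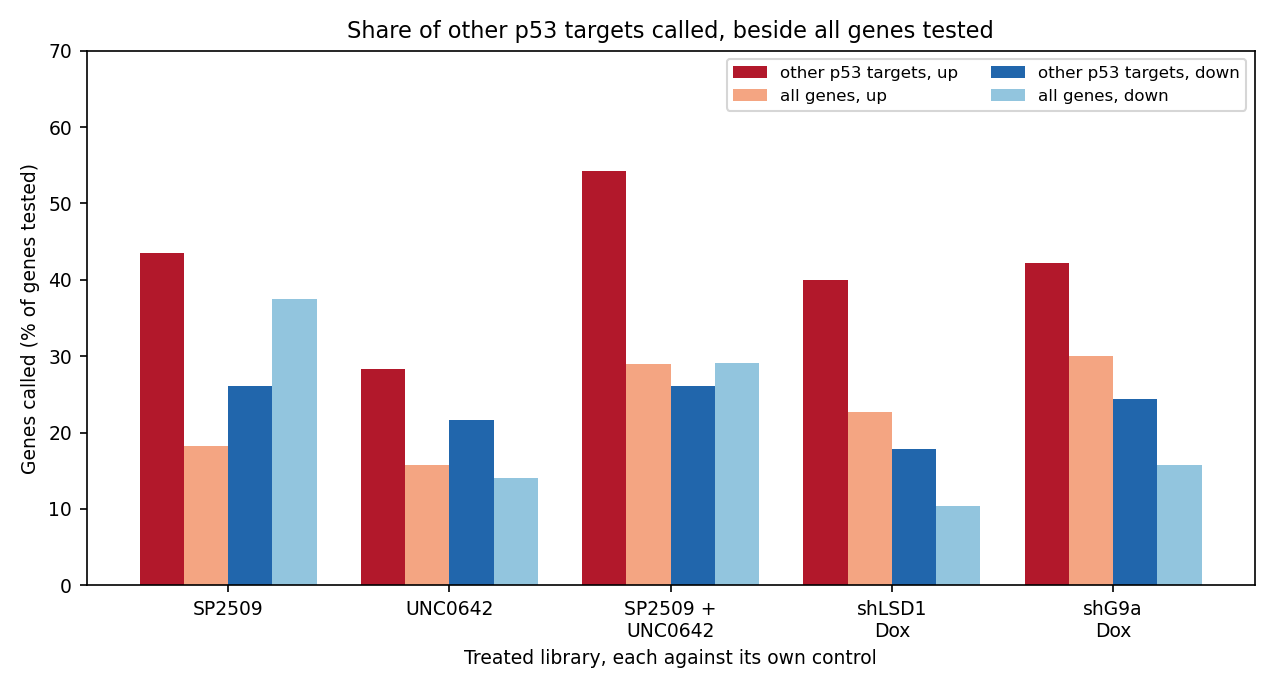
Share of the other p53 targets called up (dark red) and down (dark blue) in each comparison, beside the share of all genes tested called up (light red) and down (light blue), in percent of genes tested. The combination has 54.3% of the list up against 29.0% of all genes.

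The list was also read by role, with no test between roles. Of the 6 cell cycle genes, 4 rose and 0 fell with SP2509, 2 and 0 with UNC0642, 5 and 0 with the combination, 1 and 1 in the shLSD1 line and 3 and 2 in the shG9a line, where all genes gave 18.2% up and 37.5% down, 15.8% and 14.0%, 29.0% and 29.1%, 22.7% and 10.4%, and 30.0% and 15.8% in the same order. SFN, the 14-3-3 sigma protein that holds cells before mitosis, rose in all 5 comparisons. It stood at 179 FPKM in vehicle, 312 in SP2509, 412 in UNC0642 and 690 in the combination, and rose from 196 to 341 and from 206 to 611 with Dox in the shLSD1 and shG9a lines. PLK3, a stress kinase of the polo family, rose with all 3 inhibitor treatments and fell with Dox in the shG9a line, and BTG1, a relative of BTG2, rose with SP2509 and the combination and fell in both induced lines.

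Of the 13 cell death genes tested, 5 rose and 4 fell with SP2509, 3 and 1 with UNC0642, 10 and 2 with the combination, 6 and 2 in the shLSD1 line and 8 and 2 in the shG9a line. As shares these were 38.5% up and 30.8% down, 23.1% and 7.69%, 76.9% and 15.4%, 46.2% and 15.4%, and 61.5% and 15.4%, to be read against the same shares of all genes. PMAIP1, encoding the BH3-only protein NOXA, rose in 4 comparisons, by 0.43 on the log2 scale with SP2509, 1.08 with the combination, 1.24 in the shLSD1 line and 1.01 in the shG9a line. BAX, the effector of mitochondrial cell death, rose by 1.17 with the combination and by 0.49 with UNC0642 and fell by 0.40 with SP2509. TNFRSF10A, the TRAIL receptor DR4, rose with all 3 inhibitor treatments (1.36, 0.53 and 1.56 on the log2 scale) and fell in both induced lines, by 0.44 and 0.69.

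Of the metabolic targets, 2 of 7 rose and 4 fell with SP2509, where over all genes too more calls were down than up (18.2% up and 37.5% down). With UNC0642 1 rose and 3 fell, with the combination 1 and 4 of 7, and of the 6 tested with Dox 4 rose and 0 fell in the shLSD1 line and 2 rose and 1 fell in the shG9a line. These counts too are to be read against the shares of all genes given above. SESN2, a relative of SESN1, fell with SP2509 (-1.71), UNC0642 (-2.25) and the combination (-0.54) and in the shG9a line (-1.74). CES2, a carboxylesterase, fell by 1.76 with SP2509. TIGAR, a phosphatase that lowers glycolytic flux, went from 4.04 FPKM in vehicle to 0.671 with SP2509 and 12.3 with the combination, but held only 7 to 14 reads in each silencing library, so it was not tested there. Of the 4 feedback genes, 1 rose and 1 fell with SP2509, 0 and 1 with UNC0642, and 1 and 1 with the combination. With Dox 2 rose and 1 fell in each line, again to be read against the shares of all genes. PPM1D, a phosphatase that switches the p53 pathway off, rose with the combination (1.15) and in both induced lines (0.58 and 0.57). Of the 4 DNA repair genes, 1 rose and 2 fell with SP2509, 0 and 1 with UNC0642, and 1 and 1 with the combination. In each induced line 1 rose and 0 fell. An up call of 1 gene is 25% of these 4, near the 15.8% to 30.0% of all genes called up.

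The widest changes among the other targets were in the group of secreted, surface and other proteins, where several genes differed in sign between the 2 tables. Of its 12 genes, 7 rose and 1 fell with SP2509, and 7 rose and 4 fell with UNC0642 and with the combination. With Dox, 4 rose and 4 fell in the shLSD1 line and 3 and 5 in the shG9a line, to be read against the same shares of all genes. SERPINB5 kept its sign, rising with all 3 inhibitor treatments and in the shG9a line, and TLR3 had no called rise. THBS1, the matrix glycoprotein thrombospondin 1, went from 16.3 FPKM in vehicle to 177 after SP2509, 35.2 after UNC0642 and 72.5 after both, and from 15.4 to 3.14 and from 12.4 to 1.87 with Dox in the shLSD1 and shG9a lines. THBS1, the cytokine LIF and the EGF receptor ligand TGFA were called in all 5 comparisons, up with each inhibitor treatment and down with Dox in each line, the direction that GDF15 took. TRIM22, an antiviral ubiquitin ligase, did the reverse of these for UNC0642, the combination and both lines, with -0.44, -0.66, 1.26 and 1.67, and rose with SP2509 (0.43). KITLG, the ligand of the receptor KIT, fell with UNC0642 (-1.0) and the combination (-1.54) and rose with Dox in both lines (1.04 and 0.70).

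**Figure D5:**
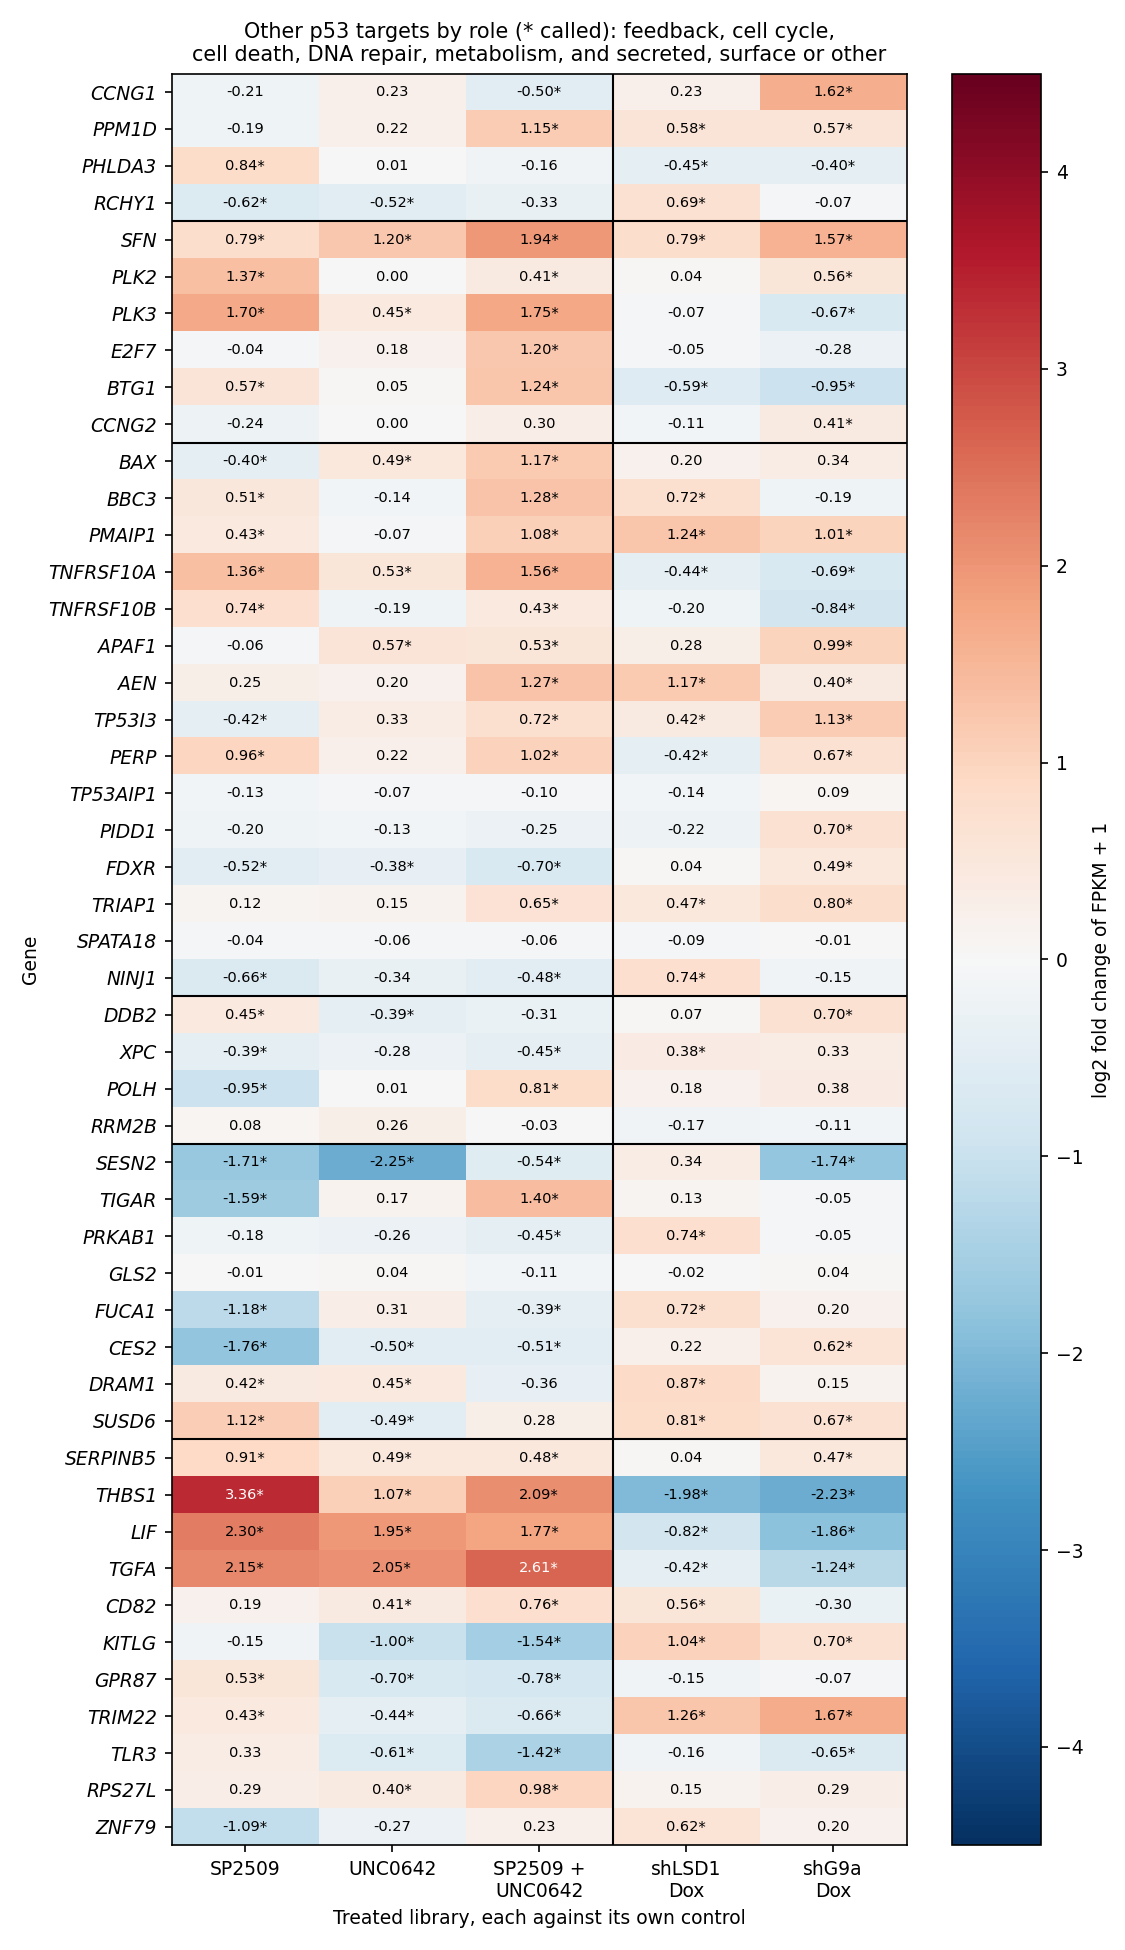
Log2 fold change of FPKM + 1 for other p53 targets (rows, grouped by role from top to bottom as in the title) in the 5 comparisons (columns), with an asterisk where the change was called. SFN is up in all 5 columns, and THBS1 runs from 3.36 with SP2509 to -2.23 with Dox in the shG9a line.

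The relatives and regulators of p53 were read beside the targets. TP63, which encodes p63, the lineage factor of squamous epithelium that shares the p53 motif, was the most abundant family member, at 79.1 FPKM in vehicle, 127 in SP2509, 62.6 in UNC0642 and 18.3 in the combination. It rose 1.61-fold (1.57 to 1.65) with SP2509 and fell to 0.232 (0.221 to 0.243) with the combination, in which most members rose. TP73, encoding p73, went up with Dox from 1.55 to 4.65 FPKM for shLSD1 and from 1.34 to 6.86 for shG9a, folds of 3 (2.54 to 3.57) and 5.11 (4.29 to 6.13), and fell to 0.405 (0.308 to 0.527) with the combination. SESN1, TP53INP1 and ZMAT3 were raised in these same 2 lines, and whether TP73 has a part in that was not tested.

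Among the kinases that activate p53, ATR fell with SP2509 and with the combination and rose in both induced lines, and CHEK2 rose with SP2509 and in the shG9a line and fell with the combination. CHEK1 rose with SP2509 and in the shG9a line, TP53BP1, a DNA damage scaffold that binds p53, fell with the combination, and ATM was called in 0 comparisons. MDM4, the partner of MDM2, was also called in 0, and USP7, the deubiquitinase that stabilises MDM2 and p53, fell with SP2509. CDKN2A, whose ARF product inhibits MDM2, had 0 or 1 read in every library, too few to test.

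GDF15 is also known as a target of ATF4 and CHOP, transcription factors of the integrated stress response, so 7 genes of that response were measured beside them. With Dox in the shG9a line, where GDF15, GADD45A, CDKN1A and FAS fell, 6 of 6 tested fell, beside 15.8% of all genes. Their median log2 fold change was -2.92, beside 0.18 over all genes tested. In the shLSD1 line 4 of 6 fell and 1 rose, beside 10.4% of all genes called down and 22.7% up. Of the 7 tested in the inhibitor table, SP2509 raised 2 and lowered 4, UNC0642 raised 0 and lowered 4, and the combination raised 3 and lowered 4. Over all genes the calls were 18.2% up and 37.5% down, 15.8% and 14.0%, and 29.0% and 29.1% in the same order. DDIT3, which encodes CHOP, fell from 70.6 FPKM in vehicle to 17.3, 5.70 and 22.6 with the 3 inhibitor treatments, in which GDF15 rose, and from 59.5 to 3.58 with Dox in the shG9a line. ATF3 went from 17.4 FPKM in vehicle to 162 after SP2509, 18.1 after UNC0642 and 100 after both, and from 35.8 to 3.66 in the shG9a line. Any part of these factors in the members' levels was not tested.

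For each member, the genes with the most similar pattern were found as those with the smallest Euclidean distance between the 5 log2 fold changes, over 9439 genes with at least 1 FPKM in all 8 libraries. SESN1, TP53INP1 and ZMAT3, with lowest values of 0.515, 0.445 and 0.757, were not among these genes and could not be found as neighbours. No other member was among the 3 nearest genes of a member, and 230 to 4008 genes lay nearer than the closest fellow member. CDKN1A was nearest to EMP3 (0.61), ADGRF4 (0.97) and ULBP2 (1.02), and GADD45A to MYC (0.99), TUFT1 (1.07) and STK17A (1.07). SESN1 was nearest to SLC35D1 (0.34), CPT1A (0.35) and CCNF (0.36), and BTG2 to ARRDC4 (0.61), EHD1 (0.72) and UBB (0.76). GDF15 had no close neighbour, IGFBP6 at 1.23 being the first, followed by UPP1 (1.33) and WISP2 (1.73).

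The members with small changes had closer neighbours: ZMAT3 was nearest to DGCR2 (0.12), MDM2 to UBE2F (0.18), FAS to ABLIM1 (0.18) and TP53INP1 to RPA2 (0.28). The 3 inhibitor comparisons share their vehicle library, so their log2 fold changes are not independent, and the distances say nothing of shared control.

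Some members overlap other annotated genes, and the sources used here do not give the strand setting of the counting. MDM2 overlaps CPM, TP53INP1 overlaps NDUFAF6 and FAS overlaps ACTA2, each on the opposite strand. NDUFAF6, at 1.38 to 2.72 FPKM, reached levels like those of TP53INP1, so reads of this pair may not be separable. CPM stayed at or under 1.33 and ACTA2 at or under 0.528, under the levels of MDM2 and FAS in every library.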

How the data were processed

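The authors sequenced whole RNA of 8 Kyse510 libraries, 1 per condition, and deposited 2 tables of FPKM values per Ensembl gene, 1 for the inhibitors and 1 for the shRNA lines. The submitters' processing notes name the build GRCh38. The aligner, the counting tool and the strand setting are not given in the sources used here, and the authors' lists of differential genes were not used.

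Reads were estimated from the deposited FPKM values. Library totals came from 1-exon genes at 1 read, and a gene's length was the smallest that made all of its values whole reads within 0.001, which held for all but 1 gene in each table. Gene reads summed to 99.6 to 99.8% of the totals. For 1935 genes, MDM2 among them, the tables used different lengths, which leaves ratios within a table untouched. Calls used a pseudocount of 1, a fold of 1.3, an FPKM of 1 and a two-sided exact binomial test (Python 3.11.15, scipy 1.17.1), and ratio intervals are Clopper-Pearson. On simulated data for SP2509 against vehicle, 193 of 200 genes changed 2-fold were called and 103 of 12631 unchanged genes. The simulated reads varied by counting error only, as the test assumes, so this says nothing of the spread between cultures. Changes nearer the 1.3-fold limit were not simulated. Levels were compared between tables only as values side by side.

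The 9 genes and all lists were chosen with earlier results of these data known, so no test over a list is given. Named genes were the members, the p53 family and its regulators, the stress genes, and some of the other p53 targets. Most of the latter were among those called in at least 4 comparisons (18 genes) or among the 2 largest in a direction. Some genes that met this rule were not named, and BAX, PPM1D and TIGAR were named without meeting it. A few genes of these lists enter the counts but are not reported here by name. Alternatives changed the pseudocount, the FPKM filter, the fold limit, the read test, the gene lengths, the centring and the control library.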

Additional observations from a re-analysis of the deposited data

Results flagged for a closer look

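Inhibition and silencing of the same enzyme gave called changes of opposite sign in 5 cases among the members. The inhibitor and silencing libraries differ also in cell line, agent and control, and with 1 library per condition these differences were not tested. For LSD1, the log2 fold change with SP2509 minus that with Dox in the shLSD1 line was 3.85 for GADD45A (2.86 against -1.0), -1.87 for SESN1 (-1.22 against 0.66) and 1.58 for GDF15 (0.57 against -1.0). For G9a, UNC0642 minus Dox in the shG9a line gave 2.51 for CDKN1A (1.72 against -0.78) and 4.79 for GDF15 (0.69 against -4.10). GDF15 is the member with this contrast for both enzymes. The uninduced lines held 181 and 208 FPKM of GDF15 and 41.3 and 45.3 of CDKN1A, beside 46.1 and 10.8 in vehicle cells.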

How the results depend on the processing

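Each count of calls was recomputed with a pseudocount of 0.1, without a filter on FPKM or with one of 5, with a fold limit of 2, after centring on the median of all genes, by fold change alone, with Benjamini-Hochberg adjusted p-values, with gene lengths from each table alone and, for the shRNA lines, against the mean of both uninduced lines. Over these 9 alternatives the count stayed within 1.5 times its value in 141 cases and did not in 27, of which 18 came from the fold limit of 2 (2 counts stayed there), 7 from the FPKM filter of 5 and 2 from the pseudocount.

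With a fold limit of 2, members called up and down numbered 2 (CDKN1A and GADD45A) and 1 with SP2509, 1 and 0 with UNC0642, 3 and 0 with the combination, 0 and 1 in the shLSD1 line and 3 and 2 in the shG9a line, and other targets 8 and 5, 5 and 2, 16 and 2, 4 and 2, and 5 and 5 in the same order. Over all genes, that limit called 6.89% up and 12.1% down with SP2509, 3.84% and 2.22% with UNC0642, and 11.9% and 8.49% with the combination. With Dox it called 2.67% and 2.51% of all genes in the shLSD1 line and 4.17% and 5.29% in the shG9a line. With FPKM of at least 5, members called down were 0 with SP2509, UNC0642 and the combination, members called up 0 in the shLSD1 line and 2 in the shG9a line, and other targets called down 6 with SP2509 and 6 with UNC0642. Of all genes at that filter, 36.8%, 14.2% and 30.3% were called down with SP2509, UNC0642 and the combination. Called up with Dox were 25.1% in the shLSD1 line and 32.6% in the shG9a line. With a pseudocount of 0.1, members called down were 2 with SP2509 and 2 with the combination, beside 40.6% and 31.9% of all genes.

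Among the recomputed fold changes of single genes, 100 kept their call and sign. TP53INP1 with SP2509, which was not tested, turned to 0.02 after centring, and ZMAT3 in the shG9a line fell to 0.25 after centring and 0.38 against both uninduced lines. The other cases stand beside their genes.

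No paired analysis was possible because each condition has 1 library and the labels carry no replicate numbers, and leaving out a library would leave no comparison. The intervals cover counting error, and the spread between cultures of 1 condition was not measured.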
